A study of Mus musculus with 2 samples.

Results

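The 8 transcription factors of granule neurogenesis Eomes, Neurod1, Neurod2, Prox1, Sox4, Sox11, Bcl11a and Bcl11b were taken by name from the 15474 genes of the count table, and all 8 were listed there. They were followed through the cell identities that the authors gave to single cells of the dentate gyrus (DG), from neural intermediate progenitor cells (nIPCs) and neuroblasts to immature and mature neurons. The study asked whether DG cells can be fixed in methanol (MeOH) and stored before single-cell sequencing, and compared fresh with MeOH-fixed cells of C57BL/6J mice aged 4 to 5 weeks. Cells were sorted singly into wells and sequenced by SORT-seq, which counts transcripts by unique molecular identifiers (UMIs) at the 3′ end. Fresh cells came from the pooled DGs of 3 mice and were sorted directly, with a stain for dead cells in the gate. MeOH-fixed cells came from the pooled DGs of 4 mice, were kept frozen for 3 weeks after fixation, were rehydrated and were sorted without that stain.

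Each condition was 1 plate of 384 wells, so that fixation, storage, mice, gate and plate cannot be told apart, and no test was made. After the authors' filter 64 fresh and 132 MeOH-fixed cells remained, with 534122 and 729018 UMIs in all and medians of 6318 and 3451.5 UMIs per cell. The nIPC and neuroblast identity held 16 fresh and 21 MeOH-fixed cells with medians of 11468.5 and 3873 UMIs. The immature identity held 5 and 25 cells with medians of 28791 and 11563 UMIs, and the mature identity 2 and 19 cells with medians of 6123 and 2554 UMIs. Levels are given as CPM, the UMIs of a gene as parts per 1000000 UMIs, summed over the cells of an identity. Their intervals are exact at 95% and cover counting error only, not the spread between mice, and they were computed on UMIs.

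The identities came from clusters of these same counts, and Eomes and Sox11 were among the genes used to name them, so that the levels by identity are a description. All 5 markers of the nIPC and neuroblast identity (Eomes, Dcx, Ccnd2, Sox11 and Calb2) were highest there. Of the 6 markers of immature neurons 4 were highest in that identity, and of the 4 listed markers of mature neurons only Tanc1 was highest in mature neurons. The 2 fresh cells labelled mature held 0 UMIs of these 4 markers, of Rbfox3 and of Snap25, so that no comparison of mature neurons was made on the fresh plate. They stay among the cells of the comparison over all cells and of the genes most like each member. Calb1, another gene used here to mark stages, was at 146 CPM in fresh immature neurons. In MeOH-fixed cells it was at 755 CPM in immature neurons (22 of 25 cells) and 303 CPM in mature ones (9 of 19). The names immature and mature are therefore those of the authors, and the markers do not set the order of these identities. In the nIPC and neuroblast identity 5 cells, 1 fresh and 4 MeOH-fixed, held 26 to 103 UMIs of the Cajal-Retzius markers Reln, Ndnf, Lhx5 and Trp73, against at most 2 in any of the other 191 cells. Cajal-Retzius cells are early-born neurons at the surface of the hippocampus. These 5 cells held 0 UMIs of Sox11, Eomes and Dcx and 15 member UMIs in all, 13 of them of Bcl11a. The ratios of the members are therefore given with and without them, and other values of this identity also without them where that moved them.

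New granule neurons arise throughout life from radial glia-like cells, which divide to give nIPCs, then neuroblasts that stop dividing, extend processes and mature. Transcription factors act in turn along this path. Eomes (Tbr2) marks intermediate progenitors, Neurod1 and Neurod2 are basic helix-loop-helix factors of differentiation, Prox1 specifies granule cell identity, Sox4 and Sox11 switch on neuronal genes in newborn neurons, and the zinc finger factors Bcl11a (Ctip1) and Bcl11b (Ctip2) act in later differentiation and maturation.

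On GRCm38, in the GENCODE vM21 annotation, Sox4 (ENSMUSG00000076431) and Sox11 (ENSMUSG00000063632) are genes of 1 exon at chr13:28948919-28953713 and chr12:27334264-27342574, both on the minus strand. Neurod1 (ENSMUSG00000034701) lies at chr2:79452521-79456751 and Neurod2 (ENSMUSG00000038255) at chr11:98325415-98329648, both on the minus strand with 2 exons. Neurod1 lies wholly within Cerkl on the same strand, and Cerkl held 2 UMIs in all fresh and 4 in all MeOH-fixed cells, 0 of them in the nIPC and neuroblast identity. Eomes (ENSMUSG00000032446) lies at chr9:118478212-118486132 and Bcl11a (ENSMUSG00000000861) at chr11:24078056-24174123, both on the plus strand. Prox1 (ENSMUSG00000010175) lies at chr1:190118035-190170714 and Bcl11b (ENSMUSG00000048251) at chr12:107910403-108003602, both on the minus strand. Eomes, Neurod1, Prox1, Sox4 and Bcl11a overlap noncoding genes on the opposite strand, such as Gm26735 at Sox4, and these were not listed in the count table.

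The sequences upstream of Sox11, Sox4 and Neurod1, which were lower in immature neurons, and of Bcl11b, which was higher there, are shown because the E-box, CANNTG, is the site that the helix-loop-helix factors of the list bind. The sequences are those of RefSeq (GRCm38.p6), read 5′ to 3′ on the minus strand up to the more upstream of the RefSeq and GENCODE starts, and capitals mark E-boxes, which read as such on both strands.
Sox11, chr12:27342719-27342968: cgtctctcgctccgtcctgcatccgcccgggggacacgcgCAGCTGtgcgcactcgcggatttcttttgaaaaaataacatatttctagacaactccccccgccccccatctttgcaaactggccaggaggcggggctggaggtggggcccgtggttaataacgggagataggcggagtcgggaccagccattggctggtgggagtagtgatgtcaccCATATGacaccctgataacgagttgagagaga
Sox4, chr13:28953714-28953949: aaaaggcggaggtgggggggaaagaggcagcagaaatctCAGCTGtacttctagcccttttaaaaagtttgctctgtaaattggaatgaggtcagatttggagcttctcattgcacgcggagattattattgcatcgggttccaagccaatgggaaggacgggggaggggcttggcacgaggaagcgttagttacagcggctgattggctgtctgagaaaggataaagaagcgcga
Neurod1, chr2:79456752-79456886: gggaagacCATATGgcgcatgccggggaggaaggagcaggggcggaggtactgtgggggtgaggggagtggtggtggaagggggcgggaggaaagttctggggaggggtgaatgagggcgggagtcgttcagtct
Bcl11b, chr12:108003603-108003664: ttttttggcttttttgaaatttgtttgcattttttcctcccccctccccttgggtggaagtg

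Sox11 and Sox4 shared the E-box of letters CAGCTG, and Sox11 and Neurod1 the one of letters CATATG. In the 250 bases before the RefSeq start the E-box stood 2 times at Sox11, 1 time at Sox4 and Neurod1, 3 times at Neurod2, 1 time at Bcl11a and 0 times at Eomes and Bcl11b. Of the pair of Prox1 starts 1 had 2 E-boxes and the other 0. The RefSeq start lay 2639 bases inside the GENCODE gene at Bcl11a and 1199 inside at the Prox1 start with 0 E-boxes. The 250 bases of these 2 starts thus lay wholly within the annotated gene. At Bcl11b the start lay 188 and at Neurod1 115 bases inside, so that their 250 bases lay partly within it. Of all 32851 promoters 66.2% held at least 1 E-box in these 250 bases, so that its presence is common. The CCAAT motif stood on either strand 4 times at Sox4, 2 times at Eomes and Neurod2 and 1 time at Sox11 and Bcl11a, and was present in 33.8% of all promoters. The share of G and C was 67.6% at Neurod1 and 44.8% at Bcl11b, against a median of 52.4%.

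Along the lineage the members did not follow 1 pattern. Eomes, Neurod1, Sox4 and Sox11 were highest in nIPCs and neuroblasts and far lower in immature neurons on both plates. Neurod2 was at a similar level in both identities. Bcl11b was low in nIPCs and neuroblasts and highest in immature neurons. The plot of CPM by identity shows these patterns side by side.

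**Figure D1:**
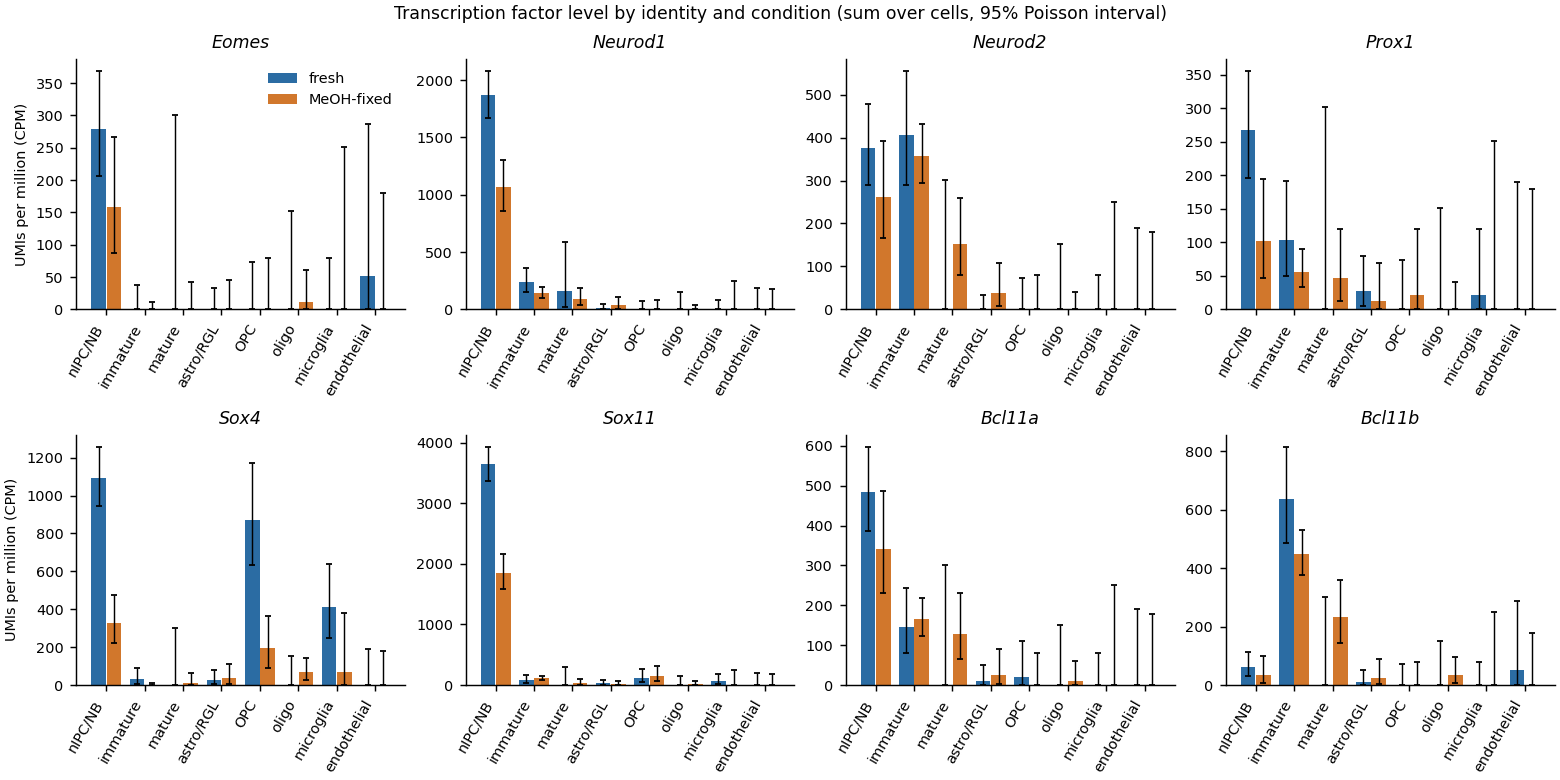
Level of each member (CPM, summed over the cells of an identity) by cell identity, for fresh (blue) and MeOH-fixed (orange) cells, with exact 95% Poisson intervals. Sox11 reached 3642 CPM in fresh and 1850 CPM in MeOH-fixed nIPCs and neuroblasts, Bcl11b was highest in immature neurons, and Sox4 also stood at 873 CPM in fresh OPCs and 410 CPM in fresh microglia.

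Eomes was the member most restricted to 1 identity. In the 16 fresh nIPCs and neuroblasts it had 0 to 16 UMIs per cell with a median of 1, and 10 cells had a UMI. In the 21 MeOH-fixed cells it had 0 to 4 UMIs with a median of 0, and 6 cells had a UMI. In fresh cells 3 cells held 16, 12 and 9 of its 49 UMIs, and the other cells held 0 to 3. The level was 279 CPM (206 to 369) in fresh and 159 CPM (86.9 to 267) in MeOH-fixed cells. It had 0 UMIs in all 30 immature and all 21 mature neurons, with intervals up to 38.4 CPM in fresh and 12.2 CPM in MeOH-fixed immature neurons. Outside the lineage it had 1 UMI on each plate.

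Neurod1 was detected in all 16 fresh nIPCs and neuroblasts, with 1 to 34 UMIs and a median of 23. In the MeOH-fixed cells it had 0 to 23 UMIs with a median of 1, and 14 of 21 cells had a UMI. The fresh values lay above most of the MeOH-fixed ones, but the ranges overlapped. The levels were 1866 CPM (1670 to 2080) and 1067 CPM (862 to 1306). In immature neurons Neurod1 had 11, 7, 4, 1 and 0 UMIs in the 5 fresh cells and 0 to 10 with a median of 1 in the 25 MeOH-fixed cells, giving 239 CPM and 142 CPM. It was still detected in 5 of 19 MeOH-fixed mature neurons, at 93.3 CPM (40.3 to 184).

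Neurod2, its close relative, was spread over nIPCs, neuroblasts and immature neurons. Fresh nIPCs and neuroblasts had 0 to 18 UMIs with a median of 4, and MeOH-fixed ones 0 to 9 with a median of 0. Fresh immature neurons had 19, 18, 2, 0 and 0 UMIs, and MeOH-fixed ones 0 to 11 with a median of 4. The levels of the 2 identities were 376 and 406 CPM on the fresh plate and 261 and 358 CPM on the MeOH-fixed plate, and the counting intervals overlapped on each plate. In MeOH-fixed mature neurons 11 of its 13 UMIs came from 1 cell, and 1 UMI from each of 2 other cells.

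Prox1, which granule cells keep throughout life, had low counts. Fresh nIPCs and neuroblasts had 0 to 8 UMIs with a median of 2.5, and 12 of 16 cells had a UMI. MeOH-fixed ones had 0 to 2 UMIs, with a UMI in 7 of 21 cells. The level was 267 CPM in fresh nIPCs and neuroblasts and 104 CPM in fresh immature neurons, which had 4, 3, 2, 1 and 0 UMIs. In MeOH-fixed cells it was 102 CPM in nIPCs and neuroblasts, 56.3 CPM in immature and 46.7 CPM in mature neurons, and these 3 intervals overlapped. With 9, 17 and 4 UMIs, an order among them was not detectable at this depth.

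Sox11 was far higher in nIPCs and neuroblasts than in immature neurons. Fresh nIPCs and neuroblasts had 0 to 84 UMIs with a median of 47.5, and 10 of the 16 cells lay between 46 and 84. MeOH-fixed ones had 0 to 41 UMIs with a median of 4. The only fresh cell at 0 and all 4 MeOH-fixed cells at 0 were the cells with Cajal-Retzius markers, so that without them Sox11 was detected in 15 of 15 and 17 of 17 cells. Fresh immature neurons had 5, 2, 1, 0 and 0 UMIs, and MeOH-fixed ones 0 to 8 with a median of 0 and a UMI in 12 of 25 cells. Fresh nIPCs and neuroblasts thus stood at 3642 CPM (3365 to 3935) and fresh immature neurons at 83.2 CPM (35.9 to 164). For MeOH-fixed cells the same levels were 1850 CPM (1577 to 2157) and 109 CPM (75.3 to 154). MeOH-fixed mature neurons held 3 UMIs, 1 in each of 3 cells.

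Sox4, of the same SoxC group, had 0 to 32 UMIs with a median of 10.5 in fresh nIPCs and neuroblasts and 0 to 6 with a median of 1 in MeOH-fixed ones. The levels were 1093 CPM (943 to 1258) and 329 CPM (220 to 473). In immature neurons it was nearly absent, with 3 UMIs in 2 of 5 fresh cells and 0 UMIs in 25 MeOH-fixed cells. The interval of the latter reached up to 12.2 CPM. In mature neurons it had 1 UMI. On the MeOH-fixed plate Sox11 had 33 and Sox4 0 UMIs in immature neurons, against 163 and 29 in nIPCs and neuroblasts. On the fresh plate they had 8 and 3 UMIs in immature neurons, against 640 and 192.

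Bcl11a was detected in all 16 fresh nIPCs and neuroblasts, with 1 to 15 UMIs and a median of 5, and in 11 of 21 MeOH-fixed ones, with 0 to 8 UMIs and a median of 1. The levels were 484 CPM (386 to 598) and 341 CPM (230 to 486). In immature neurons it was at 146 CPM and 166 CPM, with a UMI in 3 of 5 and 18 of 25 cells, and in MeOH-fixed mature neurons at 128 CPM with a UMI in 6 of 19 cells. Of its 30 UMIs in MeOH-fixed nIPCs and neuroblasts, 10 were in the cells with Cajal-Retzius markers, and without them the level was 276 CPM (169 to 427).

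Bcl11b, its paralog, ran the other way. Only 2 of 16 fresh nIPCs and neuroblasts had UMIs, 8 and 3, and 3 of 21 MeOH-fixed ones had 1 UMI each. Fresh immature neurons had 24, 24, 13, 0 and 0 UMIs, the latter in the pair of cells with the fewest UMIs (971 and 3520), and MeOH-fixed ones had 0 to 17 UMIs with a median of 6 and a UMI in 23 of 25 cells. Fresh nIPCs and neuroblasts stood at 62.6 CPM (31.2 to 112) and fresh immature neurons at 635 CPM (486 to 815). For MeOH-fixed cells these levels were 34.1 CPM (7.02 to 99.5) and 447 CPM (375 to 529). In MeOH-fixed mature neurons it was 233 CPM (143 to 360), with 0 to 6 UMIs and a UMI in 7 of 19 cells.

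**Figure D2:**
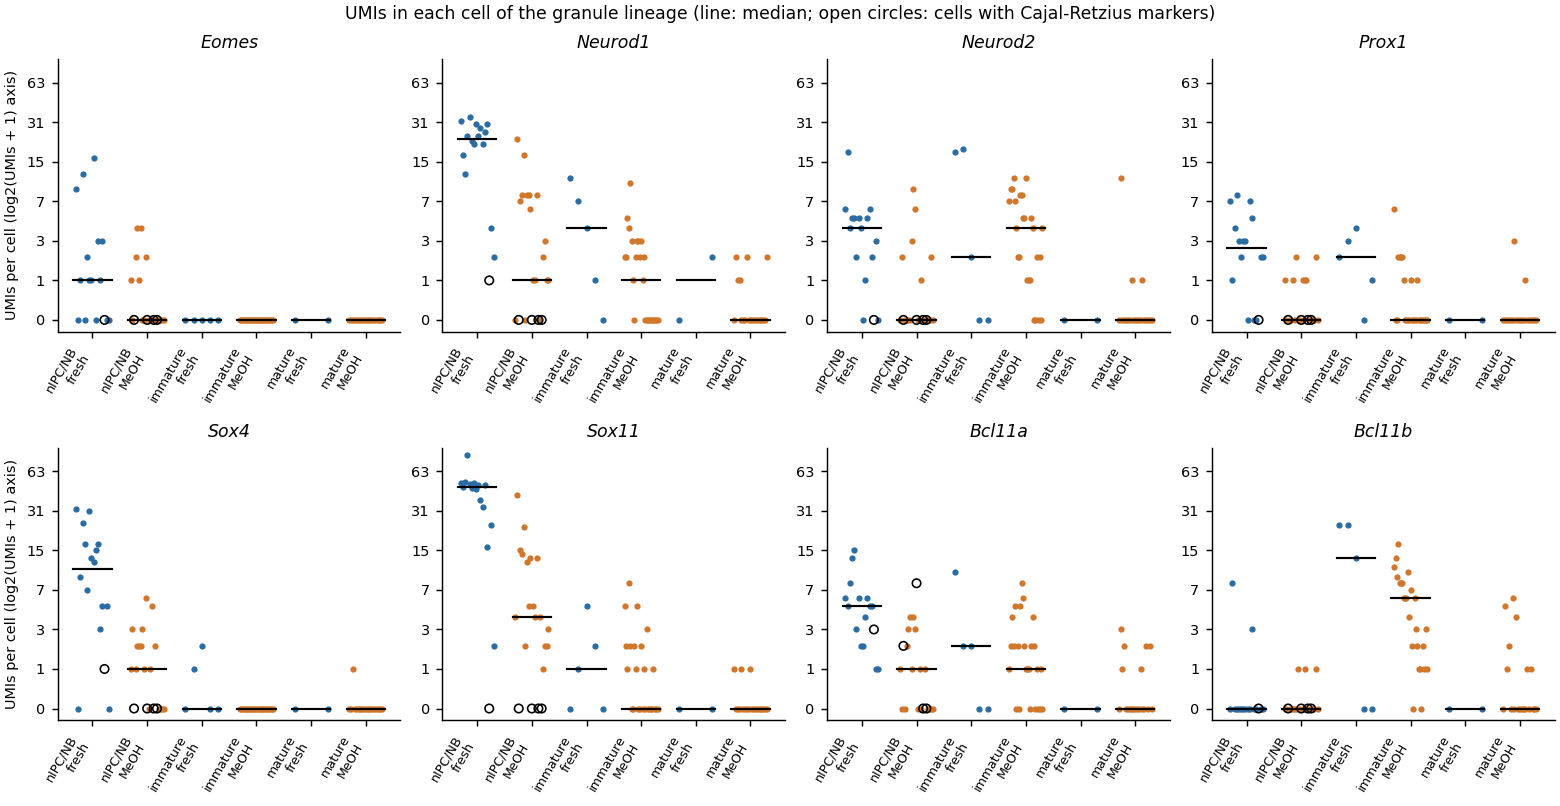
UMIs of each member in every cell of the granule lineage (points, axis on a log2(UMIs + 1) scale; black lines, medians; cells ordered within a group from the deepest on the left), for fresh (blue) and MeOH-fixed (orange) cells. The 5 open circles are the cells with Cajal-Retzius markers, which hold 0 UMIs of Sox11 and Eomes.

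From nIPCs and neuroblasts to immature neurons, a gene was compared when it had at least 20 UMIs in both groups together and was counted as lower or higher past a 2-fold difference. A gene could thus be compared through the 1 group where it was high, which holds for the members and for all genes. In fresh cells 6 of 8 members were past 2-fold lower and 1 higher, against 22.9% and 24.5% of 2810 genes. The median log2 ratio was -2.35 for the members and -0.02 for all genes. Sox11 was 43.7-fold lower in immature neurons (log2 ratio -5.45, -6.67 to -4.46), Sox4 35.0-fold (-5.13, -7.42 to -3.56, on 3 UMIs) and Neurod1 7.80-fold (-2.96, -3.64 to -2.35). Eomes was 8.93-fold lower with the 0 UMIs of immature neurons taken as 3 (log2 ratio -3.16, interval up to -2.81). Bcl11a and Prox1 differed less, by 3.32-fold and 2.57-fold. Bcl11b was 10.1-fold higher (log2 ratio 3.34, 2.40 to 4.42). The counting intervals of the 2 levels were apart for all of these and overlapped for Neurod2 only, at a log2 ratio of 0.11 (-0.50 to 0.70).

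In MeOH-fixed cells 4 of 7 members were past 2-fold lower and 1 higher, against 13.9% and 31.6% of 4061 genes, with a median log2 ratio of -1.04 for the members and 0.32 for all genes. Eomes, with 14 UMIs, was not compared. Sox4 was 33.1-fold lower in immature neurons with their 0 UMIs taken as 3 (log2 ratio -5.05, interval up to -4.66). Sox11 was 16.9-fold lower (log2 ratio -4.08, -4.67 to -3.53) and Neurod1 7.49-fold (-2.91, -3.46 to -2.37). Bcl11b was 13.1-fold higher (3.72, 2.14 to 6.01, on 3 UMIs in nIPCs and neuroblasts). Sox4, Sox11, Neurod1 and Bcl11b thus stood on the same side past 2-fold on both plates. Bcl11a had a log2 ratio of -1.04 (-1.72 to -0.34) with the cells of Cajal-Retzius markers and of -0.74 (-1.51 to 0.09) without them. Prox1 had -0.86 (-2.11 to 0.49) with and -1.14 (-2.39 to 0.20) without them. For the other members the values without these 5 cells lay within the counting intervals of those with them, such as -4.37 for Sox11 and 3.43 for Bcl11b.

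Immature neurons were the deeper cells on both plates. When each cell was thinned to 2000 UMIs, Sox11 was expected in 93.3% of the 15 fresh nIPCs and neuroblasts of that depth and in 29.5% of the 4 fresh immature neurons, and in 71.1% of 17 and 15.8% of 25 MeOH-fixed cells. Without the cells of Cajal-Retzius markers these shares of nIPCs and neuroblasts were 99.9% of 14 fresh and 92.9% of 13 MeOH-fixed cells. For Bcl11b the order was the opposite, with 7.50% and 54.9% of the fresh and 6.63% and 58.5% of the MeOH-fixed cells. Neurod2 was expected in 47.6% and 38.5% of fresh and in 23.1% and 47.3% of MeOH-fixed cells, and so kept no common order.

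From immature to mature neurons, which could be compared in MeOH-fixed cells only, 2 of 6 members were past 2-fold lower and 0 higher, against 26.6% and 13.0% of 4053 genes. This share is near that of all genes, whose median log2 ratio was -0.32 against -0.77 for the members. Neurod2 had a log2 ratio of -1.24 (-2.19 to -0.40), Sox11 -1.64 (-3.99 to 0.03) on 3 UMIs in mature neurons, and Bcl11b -0.94 (-1.69 to -0.25). The intervals of the 2 levels were apart for Neurod2 and Bcl11b only. The ratios of Neurod1, Prox1 and Bcl11a had intervals that included 0. The deepest mature cell held 22.7% of the UMIs of its identity and 1 member UMI, with 14 UMIs of Calb2 and 21 of Cck, and without it 1 member was past 2-fold lower.

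**Figure D3:**
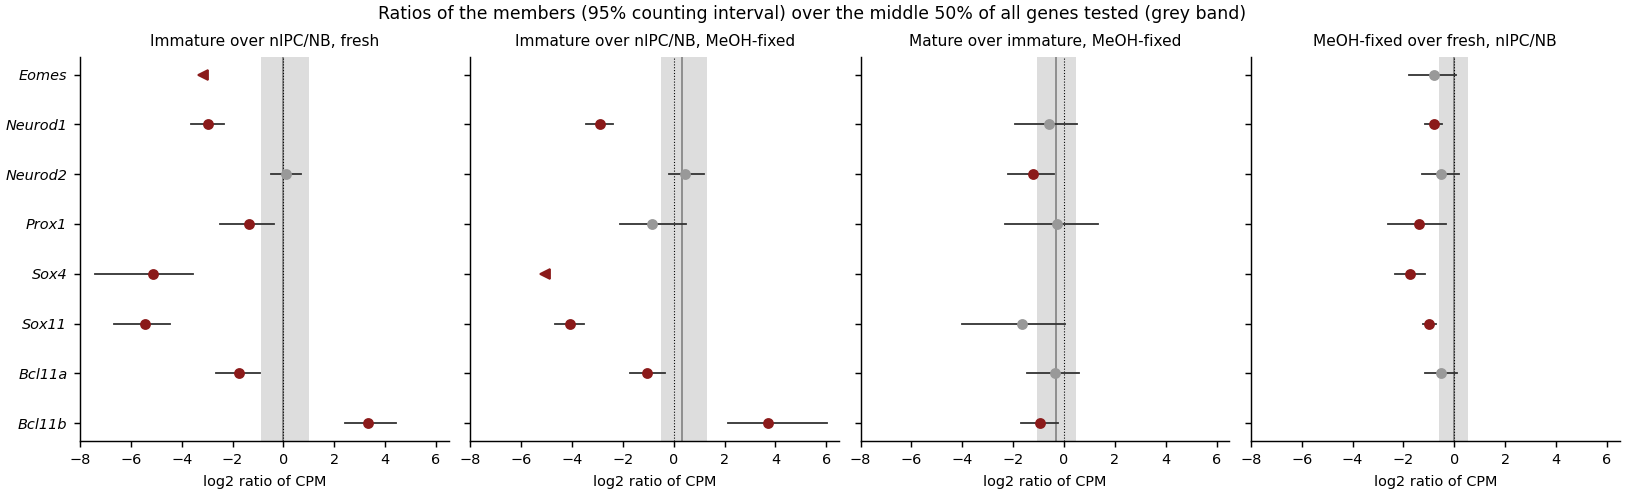
Log2 ratio of CPM of the members with at least 20 UMIs in each of 4 comparisons (points with 95% counting intervals; red where the Poisson intervals of the 2 levels are apart, grey where they overlap; triangles, bounds against a group at 0 UMIs). The grey band and line give the middle 50% and the median of all genes tested, and Sox4, Sox11 and Neurod1 lie below and Bcl11b above the band in both comparisons of immature neurons with nIPCs and neuroblasts.

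Between the conditions, all 7 members compared were lower in MeOH-fixed than in fresh nIPCs and neuroblasts, 2 of them past 2-fold and 0 past 2-fold higher, against 14.1% and 9.99% of 2582 genes. Of these genes 52.1% were lower at all, with a median log2 ratio of -0.00, and the median of the members was -0.81. Sox4 went from 1093 to 329 CPM (log2 ratio -1.73, -2.35 to -1.16), Prox1 from 267 to 102 CPM (-1.39, -2.60 to -0.34), Sox11 from 3642 to 1850 CPM (-0.98, -1.23 to -0.73) and Neurod1 from 1866 to 1067 CPM (-0.81, -1.15 to -0.47). The counting intervals overlapped for Eomes, Neurod2 and Bcl11a. Without the cells of Cajal-Retzius markers all 7 were again lower, with a median log2 ratio of -0.75 against -0.05 for all genes, and Sox4 was at -1.49 (-2.11 to -0.92) and Sox11 at -0.75. The intervals of the 2 levels of Prox1 then overlapped.

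The cells under this label differed between the plates in other ways, whose part in the difference was not tested. The fresh cells had 0 UMIs of the proliferation genes Mki67 and Top2a, while 4 MeOH-fixed cells held 45. The cyclin gene Ccnd2 was at 91.0 CPM in the former and 715 CPM in the latter, and 1 MeOH-fixed cell held 34 of its 63 UMIs, without which the level was 384 CPM. Rbfox3, the gene of the neuronal marker NeuN, was at 495 and 125 CPM, and at 514 and 152 CPM without the cells of Cajal-Retzius markers. Of the 6 MeOH-fixed cells with Eomes, 3 also had UMIs of Mki67 or Top2a, against 0 of 10 fresh ones. The proliferating MeOH-fixed cell with the most UMIs (12604) had 1 UMI of Eomes, 4 of Sox11, 0 of Neurod1 and 0 of Dcx, with 8 of Sox2, a gene of earlier progenitors. Sox2 had 14 UMIs on each plate in this identity, at 79.7 CPM in fresh and 159 CPM in MeOH-fixed cells. By cells it was found more often on the fresh plate, in 6 of 16 cells against 3 of 21, but the fresh cells were deeper. Thinned to 2000 UMIs and without the cells of Cajal-Retzius markers, Sox2 was expected in 14.4% of 14 fresh and 14.8% of 13 MeOH-fixed cells.

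In immature neurons 0 of 6 members were past 2-fold in either direction, against 7.12% lower and 13.9% higher among 4029 genes. Bcl11b was at 635 CPM in fresh and 447 CPM in MeOH-fixed cells (log2 ratio -0.51, -0.95 to -0.04) and Neurod2 at 406 and 358 CPM, and the intervals of the 2 levels overlapped for all 6. The 5 fresh cells hold almost all of their member UMIs in 3 cells. Over all cells 5 of 8 members were past 2-fold lower and 0 higher, against 9.00% and 10.6% of 8804 genes, but nIPCs and neuroblasts made up 16 of 64 fresh and 21 of 132 MeOH-fixed cells. With the same weight for each identity, the 2 fresh cells labelled mature being 1 of them, 1 member, Sox4, was past 2-fold lower. Prox1 had 0 CPM in these 2 cells and 46.7 CPM in MeOH-fixed mature neurons, which brings its equally weighted levels closer. This weighting was not repeated without them, and the share of all genes past 2-fold under it was not computed. The weighting therefore does not separate the make-up of the plates from the levels within identities. Leaving out these 2 cells moved no log2 ratio pooled over all cells past 2-fold or back. Over all cells Bcl11b was higher in MeOH-fixed cells, at 224 CPM against 139 CPM, with 5 of 64 fresh and 25 of 132 MeOH-fixed cells in the immature identity.

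Outside the lineage, Sox4 was the member with the widest distribution. The 3 neuronal identities held 74.7% of its UMIs in fresh and 61.2% in MeOH-fixed cells, against 93.3% to 100% for each of the other members on each plate. All 5 fresh oligodendrocyte precursor cells (OPCs) had Sox4, with 36, 5, 1, 1 and 1 UMIs, and 4 of 10 MeOH-fixed ones had 1 to 3 UMIs. The level was 873 CPM (634 to 1172) in fresh OPCs, but 319 CPM (138 to 628) without the cell with 36 UMIs, a choice made after its value was seen, and 193 CPM (88.3 to 366) in MeOH-fixed ones. That cell held 96 UMIs of Gpr17, 33 of Bmp4, 56 of Sox10 and 0 of Pdgfra and Dcx. The MeOH-fixed oligodendrocyte with Sox4, which had 6 UMIs, held 13 of Gpr17 as well. Gpr17 and Bmp4 are genes of OPCs that have begun to differentiate.

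Microglia had Sox4 in 4 of 10 fresh cells, with 9, 6, 3 and 1 UMIs, at 410 CPM (247 to 640), and in 1 of 7 MeOH-fixed cells. These 4 fresh cells held 15 to 58 UMIs of the microglial receptor gene Csf1r and 0 of Sox11 and Dcx. Sox11 had 6 UMIs in fresh and 7 UMIs in MeOH-fixed OPCs, at 119 and 150 CPM. Neurod1, Neurod2 and Bcl11a, with Prox1 and Eomes, had 0 or 1 UMI in the oligodendrocytes, microglia and endothelial cells of each plate together, which had medians of 4247 and 3145 UMIs. Sox4 had 19 UMIs in these fresh cells and 7 in the MeOH-fixed ones, against 0 to 3 UMIs of every other member on either plate.

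Members were often found in the same cells. Of the 16 fresh nIPCs and neuroblasts 13 had both Sox4 and Sox11, and of the 21 MeOH-fixed ones 12 did, with 0 MeOH-fixed cells having Sox4 only. All 13 fresh and all 6 MeOH-fixed cells with Neurod2 also had Neurod1, and in immature neurons all 3 fresh and 14 of the 21 MeOH-fixed cells with Neurod2 had it. Eomes was found with Sox11 in all 10 fresh and all 6 MeOH-fixed cells that had it, and with Neurod1 in 10 of 10 and 4 of 6. Eomes and Prox1 were both found in 7 fresh and 2 MeOH-fixed cells. The pair Bcl11a and Bcl11b was found in 2 fresh and 2 MeOH-fixed nIPCs and neuroblasts and in 3 of 5 and 16 of 25 immature neurons. Neurod1 and Bcl11a were found in all 16 fresh nIPCs and neuroblasts and Sox11 in 15. Fresh overlaps with these 3 genes were thus fixed or nearly fixed, and say little of the pairs. In MeOH-fixed nIPCs and neuroblasts Neurod1, Bcl11a and Sox11 were found in 14, 11 and 17 of 21 cells. None of these counts of nIPCs and neuroblasts with both genes of a pair changed without the cells of Cajal-Retzius markers. After thinning to 800 UMIs, both Sox4 and Sox11 were expected in 7.24 fresh and 3.73 MeOH-fixed nIPCs and neuroblasts, so that these counts of cells depend on depth. Fresh nIPCs and neuroblasts had 3 to 8 members with a median of 6, and MeOH-fixed ones 0 to 6 with a median of 4, or 2 to 6 with a median of 5 without the cells of Cajal-Retzius markers.

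Other transcription factors of the lineage were taken from lists, counted in the same way between nIPCs and neuroblasts and immature neurons. Of 22 stem and progenitor cell factors 6 reached 20 UMIs on each plate, and all of these were past 2-fold lower in immature neurons, against 22.9% of all genes on the fresh and 13.9% on the MeOH-fixed plate. Emx1 had 20 and 1 UMIs in fresh cells and Emx2 17 and 3 in MeOH-fixed cells. Both reached the limit mainly through nIPCs and neuroblasts, so that their direction was partly set by it. Nfib, Nfia and Nfix, nuclear factor I genes that act in both neural stem cells and newborn neurons, had log2 ratios of -2.49, -2.23 and -3.05 in fresh and of -2.13, -2.29 and -2.50 in MeOH-fixed cells. Against the same shares, 11 of 12 compared of the 23 committed progenitor and neuroblast factors were past 2-fold lower in fresh cells, while in MeOH-fixed cells 4 of 8 were lower and 1, St18, was higher on 2 UMIs in nIPCs and neuroblasts. Without the cells of Cajal-Retzius markers 10 of 11 and 2 of 7 of these factors were past 2-fold lower. Neurod6 and Nhlh1 had 20 and 23 UMIs in fresh nIPCs and neuroblasts and 0 in fresh immature neurons. They too reached the limit through the former only. Tcf4, a partner of helix-loop-helix factors, had log2 ratios of -1.92 and -1.35. Tbr1, which follows Eomes in cortical neurons, had -1.30 in fresh cells. In MeOH-fixed cells Tbr1 had -1.61 with and -0.06 (-1.29 to 1.38) without the cells of Cajal-Retzius markers.

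Of 15 factors of granule neuron maturation 5 of 9 compared were past 2-fold higher in fresh and 6 of 10 in MeOH-fixed immature neurons, against 24.5% and 31.6% of all genes. On the 2 plates 3 and 2 of them were past 2-fold lower, against 22.9% and 13.9%. Without the cells of Cajal-Retzius markers 4 of 8 and 5 of 10 were higher. Bcl6 had 0 UMIs in MeOH-fixed nIPCs and neuroblasts and 22 in MeOH-fixed immature neurons. It reached the limit through the latter only, so that its direction was set by it. With its 0 UMIs taken as 3, its log2 ratio was at least 1.10 with and 0.81 without the cells of Cajal-Retzius markers. Mef2c, Klf9 and Smad3 had log2 ratios of 5.43, 4.68 and 5.46 in fresh and of 3.75, 1.84 and 2.03 in MeOH-fixed cells, on 1 to 13 UMIs in nIPCs and neuroblasts. They too reached the limit mainly through immature neurons. Zbtb20 and Satb1 of the same list were lower in immature neurons on both plates, at -1.43 and -2.30 and at -1.51 and -2.02. Of 12 factors of other lineages only Sox10 could be compared, in MeOH-fixed cells, at -1.12 (-2.16 to -0.05).

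**Figure D4:**
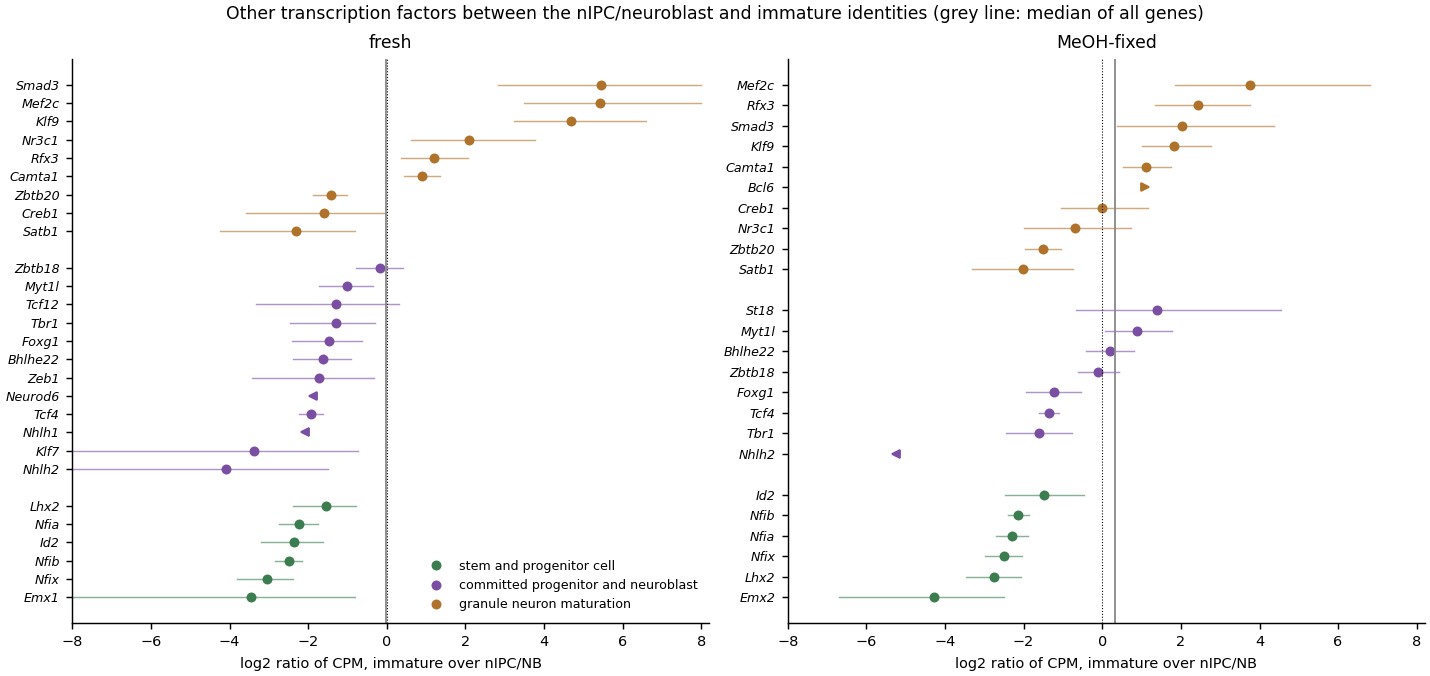
Log2 ratio of CPM in immature neurons over nIPCs and neuroblasts for transcription factors of the lists of progenitor, neuroblast and maturation factors with at least 20 UMIs, in fresh (left) and MeOH-fixed (right) cells, coloured by list, with 95% counting intervals (clipped at the panel edges) and triangles for bounds. The solid grey line is the median of all genes. Stem and progenitor cell factors all lie below 0, and Mef2c, Klf9, Smad3, Rfx3 and Camta1 of the maturation list lie above 0 on both plates.

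The genes whose CPM most resembled that of each member over the 16 groups of identity and condition were named by Pearson's r of log2(CPM + 10) among 1022 genes with at least 200 UMIs, as a description over groups that share 2 libraries. Sox11 was most like Dcx (r = 0.90), Calb2 (0.89) and Nfia (0.86), and Eomes was most like Dcx (0.82). Neurod1 was most like Crmp1 (0.95), Stmn2 (0.86) and Tubb3 (0.86), and Neurod2 most like Clstn2 (0.95), Rbfox3 (0.93) and Epha7 (0.93). Bcl11a was most like Neurod2 (0.95), and Prox1 most like Sept3 (0.89). Bcl11b was most like Rbfox1 (0.95), Synpr (0.93) and Fam163b (0.93). Sox4 was most like Cdk2ap1 (0.85). Without the group of the 2 fresh cells labelled mature, over 15 groups, the leading gene was the same for Neurod1, Sox4, Sox11 and Bcl11b. It was then Crmp1 for Neurod2 (0.96), Neurod1 for Prox1 (0.91) and for Bcl11a (0.96), and Hnrnpab for Eomes (0.84). Dcx, the gene of doublecortin, had 967 CPM in fresh and 454 CPM in MeOH-fixed nIPCs and neuroblasts and 0 and 9.94 CPM in immature neurons.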

How the data were processed

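Reads of the SORT-seq plates were mapped to GRCm38 with STAR by the authors, who deposited them as tables of expected counts, in which the number of UMIs seen was corrected upwards for different molecules carrying the same UMI, before and after filtering. Identities and the percent of mitochondrial counts of each cell were deposited by the authors and used as given. The adjustment was inverted here, and every value came out as a whole UMI number to within 3.64e-12. Columns were mapped to a plate by name. Names of filtered cells carried the plate, and 0 were shared between plates, while 24 well numbers were.

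UMIs were summed per identity and condition and divided by all UMIs of those cells. Sums have exact Poisson, shares exact Clopper-Pearson and ratios conditional binomial intervals at 95%. A gene was compared with at least 20 UMIs in both groups together, and 0 UMIs were taken as 3 per group in a ratio. Shares after thinning to 800 or 2000 UMIs, without shallower cells, were computed as hypergeometric expectations, which for 2000 UMIs left out 7 fresh and 28 MeOH-fixed cells. With 1 library per condition there was no test, and cells were not treated as replicates. Doublets were not called. The scripts were tested on simulated data. Positions are from GENCODE vM21 and promoter sequences from RefSeq, with all 8 members matched by symbol. No protein sequence was used here.

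The members, the gene lists and the comparisons were chosen with earlier results of these data known. The genes named are the members, the listed transcription factors and stage genes with at least 20 UMIs in the identities compared, identity markers, and the 3 genes most like each member. Reln, Mki67 and the genes named in single cells were chosen after their values were seen, as were the 5 cells left out. Of the alternatives 24 were planned and 7 added after seeing the data. Sums were made with pandas 2.3.3 and numpy 2.4.6, intervals with scipy 1.17.1 and plots with matplotlib 3.10.9, all under Python 3.11.15.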

Additional observations from a re-analysis of the deposited data

Results flagged for a closer look

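The barcodes that failed the filter, which no comparison above used, held member UMIs above the limit that a count of 0 allows. They include the wells that the authors left empty as controls, so that not all of them held a cell. In the 320 fresh barcodes the 8 members together had 136 UMIs, or 970 CPM (814 to 1148), in 50 barcodes. In the 252 MeOH-fixed barcodes they had 36 UMIs, or 430 CPM (301 to 596), in 25 barcodes. On the fresh plate 63 of the 136 UMIs came from 1 barcode with 44514 UMIs, the deepest of those that failed. Its depth lay above the upper limit of the authors' filter. This barcode held 22 UMIs of Bcl11b, 22 of Neurod2, 8 of Bcl11a, 7 of Neurod1, 1 of Sox11 and 0 of Sox4 and Eomes. Without it the fresh level was 763 CPM over 319 barcodes.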

How the results depend on the processing

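Each value rests on 1 plate per condition and on few cells, 5 of them in fresh immature neurons, and the counting intervals leave out the spread between mice. No paired analysis was possible because each condition is 1 library. Using the expected counts as deposited, leaving out mitochondrial genes from the total, cells over 25% mitochondrial counts or the cells of Cajal-Retzius markers moved no count of members past 2-fold by over 1.5 times. Other settings did. Without the cell with the highest count of each gene, 4 members were past 2-fold lower in MeOH-fixed against fresh nIPCs and neuroblasts, 1 was lower and 2 higher in immature neurons and 1 higher over all cells, 2 were higher from MeOH-fixed nIPCs and neuroblasts to immature neurons, and 4 were lower from immature to mature neurons. With the mean of the CPM of each cell, 1 member was lower and 1 higher between conditions in immature neurons and 1 higher over all cells. With the mean count per cell, which is not divided by depth, 7 were lower in nIPCs and neuroblasts and 3 in immature neurons. This setting takes in the depth of the fresh cells, with medians of 11468.5 against 3873 UMIs and of 28791 against 11563 UMIs. The share of all genes past 2-fold under it was not computed, so that these 2 counts say nothing particular to the members. With equal weight for each identity, the fresh cells labelled mature included, 1 was lower over all cells. Without the deepest mature cell 1 was lower from immature to mature neurons. For these counts the cause of the move was not tested. Of 294 log2 ratios under the alternatives 277 kept their direction, and the 17 others belong to ratios whose counting intervals of the 2 levels overlapped. With at least 50 UMIs the genes past 2-fold lower from nIPCs and neuroblasts to immature neurons were 23.6% of those on the fresh and 11.7% of those on the MeOH-fixed plate, and 7.97% between the conditions in nIPCs and neuroblasts. Thinning to 800 UMIs moved 24 of 40 shares of cells out of their intervals. Shares of cells with a UMI are limited by depth for all members.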

Other observations

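The direction of some listed transcription factors between the conditions turned with the 5 cells of Cajal-Retzius markers. Nhlh2, a helix-loop-helix factor of differentiating neurons, had 176 CPM in fresh and 375 CPM in MeOH-fixed nIPCs and neuroblasts with them (log2 ratio 1.09, 0.33 to 1.84) and 148 and 69.1 CPM without them (-1.09, -2.84 to 0.32). Tbr1 had 256 and 284 CPM with them (0.15, -0.62 to 0.88) and 236 and 96.8 CPM without them (-1.29, -2.69 to -0.11). These cells held 34 of the 64 Nhlh2 UMIs and 23 of the 70 Tbr1 UMIs of this identity. Hopx, a gene of radial glia-like cells, had 34.1 and 170 CPM (log2 ratio 2.32, 0.87 to 3.97), and 1 MeOH-fixed cell held 10 of its 15 UMIs there, without which the level was 66.2 CPM. Id2, an inhibitor of helix-loop-helix factors, had 859 and 193 CPM (log2 ratio -2.15, -2.97 to -1.43).

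Between immature and mature MeOH-fixed neurons, 3 of 10 factors of the maturation list were past 2-fold higher and 3 lower, against 13.0% and 26.6% of all genes. Zbtb20 had 298 and 653 CPM (log2 ratio 1.13, 0.62 to 1.63), Satb1 36.4 and 210 CPM (2.53, 1.37 to 3.76) and Bcl6 72.9 and 187 CPM (1.36, 0.33 to 2.35). Klf9, Camta1 and Creb1 were lower, at log2 ratios of -1.33, -1.50 and -2.27. On the MeOH-fixed plate Zbtb20 and Satb1 were thus lowest in immature neurons among the 3 identities, where Bcl11b was highest. This rests on 56 and 18 UMIs in mature neurons. These values include the deepest mature cell, which held 22.7% of the UMIs of its identity.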
